A study of Homo sapiens with 12 samples.

Results

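Antisense long noncoding RNA (lncRNA) genes were compared with their sense partners in 3 ovarian cell lines. An antisense gene was taken to be any lncRNA gene whose GENCODE symbol ends with -AS and a number, and its partner was the gene named before -AS. CDKN2B-AS1 and EPB41L4A-AS1 were left out. This gave 1810 antisense genes of the 61533 genes in the files, 17658 of which are lncRNA genes. A partner was found for 1794 of them, 1780 with a protein-coding partner, and 16 had none. RNA of 4 replicates per line, 12 libraries in all, was depleted of rRNA and sequenced as paired ends with a directional kit. T1074, ovarian epithelial cells immortalized with SV-40 and grown in Prigrow I, served as the noncancerous counterpart. PEO-4 came from the ascites of a high-grade serous ovarian carcinoma and was grown in RPMI 1640. SKOV-3, also from ascites, is described by the study as a clear cell carcinoma and was grown in McCoy's 5A. No treatment in culture is described, and all media held fetal bovine serum. The study states that the donor of PEO-4 had received chemotherapy, cisplatin among it, and was clinically resistant when the cells were collected. Each group is a single line, so that disease, donor, medium and culture history cannot be told apart. No source used here says whether the replicates were separate cultures, so that the p-values rest on the spread among these libraries alone, which may be technical. GEO's labels name protein as the molecule, although the values are estimates from RNA-seq.

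Antisense lncRNAs are transcribed from the DNA strand opposite to another gene, and many begin close to the promoter of that gene and run away from it, a head-to-head or divergent arrangement. Some act in cis, for instance by recruiting chromatin regulators, by interfering with transcription or by pairing with the sense RNA, while others act elsewhere in the cell, and for most of them no function is known. Several have been studied in ovarian and other carcinomas beside partners such as PAX8, a transcription factor of the Müllerian tract, and ZEB1, a repressor that drives epithelial to mesenchymal transition.

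The starts of 4 pairs are shown because both partners have a start within 300 bases of each other and read away from each other, so that the same short stretch lies upstream of both. HAND2-AS1, PRKCQ-AS1 and B3GALT5-AS1 are, of the pairs with the largest changes in the same direction, those with such starts, and ZEB1-AS1 was added after its values were seen, since its partner changed without it in PEO-4. Each line gives the plus strand of hg38, 5′ to 3′, from 30 bases before the first start to 30 bases after the second, and the capitals mark the bases from one start to the other. The starts are those of RefSeq, and for PRKCQ-AS1 and PRKCQ those of GENCODE 44. By the outermost starts in GENCODE 44 the spans of the other 3 pairs overlap.
HAND2-AS1 and HAND2, chr4:173530199-173530488: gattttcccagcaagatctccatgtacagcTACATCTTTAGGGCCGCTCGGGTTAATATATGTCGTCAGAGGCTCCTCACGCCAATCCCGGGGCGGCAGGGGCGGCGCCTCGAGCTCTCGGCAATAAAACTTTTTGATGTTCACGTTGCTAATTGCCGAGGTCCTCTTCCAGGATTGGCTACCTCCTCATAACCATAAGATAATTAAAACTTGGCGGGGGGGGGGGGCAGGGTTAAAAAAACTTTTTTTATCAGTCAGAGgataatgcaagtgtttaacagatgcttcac
PRKCQ-AS1 and PRKCQ, chr10:6580271-6580449: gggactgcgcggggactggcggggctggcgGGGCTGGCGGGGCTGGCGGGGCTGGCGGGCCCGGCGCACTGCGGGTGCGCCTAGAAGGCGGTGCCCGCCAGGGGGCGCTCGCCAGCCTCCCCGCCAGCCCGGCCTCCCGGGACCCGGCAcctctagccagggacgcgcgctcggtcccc
B3GALT5-AS1 and B3GALT5, chr21:39612792-39612970: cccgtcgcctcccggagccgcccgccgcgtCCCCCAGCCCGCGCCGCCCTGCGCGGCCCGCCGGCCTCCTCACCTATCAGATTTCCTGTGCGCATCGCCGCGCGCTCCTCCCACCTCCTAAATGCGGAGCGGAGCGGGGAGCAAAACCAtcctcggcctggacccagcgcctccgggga
ZEB1-AS1 and ZEB1, chr10:31320417-31320584: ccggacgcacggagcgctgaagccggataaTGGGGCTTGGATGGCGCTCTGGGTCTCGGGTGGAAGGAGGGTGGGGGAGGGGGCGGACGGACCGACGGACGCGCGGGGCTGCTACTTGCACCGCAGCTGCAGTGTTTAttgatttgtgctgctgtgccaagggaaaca

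HAND2-AS1 and HAND2 start 229 bases apart, PRKCQ-AS1 and PRKCQ 118 bases, B3GALT5-AS1 and B3GALT5 118 bases, and ZEB1-AS1 and ZEB1 107 bases. The windows hold 49.0%, 82.7%, 74.9% and 64.9% guanine and cytosine in that order, with 13, 23, 25 and 15 CpG dinucleotides. Letters of 4 promoter motifs were searched on both strands, and no motif contains another. The CCAAT box (letters CCAAT) occurred 2 times in the HAND2 window and in none of the others. The GC box (letters GGGCGG) occurred 2 times in the HAND2 window, 2 times in that of B3GALT5 and 1 time in that of ZEB1. Neither the TATA box (letters TATAAA) nor the ETS site (letters CCGGAAG) was found in any of them, and the PRKCQ window held none of the 4. Of all promoters cut to 290 bases, the length of the HAND2 window, 34.0% held the CCAAT box and 44.5% the GC box. The GC box was in 38.1% of promoters cut to 179 bases and in 37.0% of those cut to 168. RefSeq promoters, from 250 bases before to 50 after the start, were at hand for 1265 antisense symbols with 1437 promoters. The TATA box was in 9.39% of these, the CCAAT box in 32.2%, the GC box in 39.9% and the ETS site in 7.93%, against 11.6%, 34.6%, 44.9% and 10.2% of all 34943 promoters. The median antisense promoter held 57.3% guanine and cytosine and 11 CpG dinucleotides, against 58.7% and 14 over all. A match of letters describes the sequence and not binding.

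Expected counts summed to 19780836 to 55739060 per library, with T1074 replicate 1 the shallowest. Antisense genes took 0.153% to 0.245% of them, and 915 to 1093 antisense genes were above 0 in a library. Levels below are in CPM, counts scaled by library totals and TMM factors, unless TPM, which also divides by transcript length, is named. Markers of the lines differed strongly. In the order T1074, PEO-4, SKOV-3, the Müllerian factor PAX8 averaged 0.0951, 106 and 92.4 CPM, and MUC16, the gene of the CA125 antigen, 0.105, 589 and 0.387 CPM. EPCAM, an epithelial adhesion molecule, averaged 0.0964, 163 and 24.5 CPM and CDH1, E-cadherin, 0.354, 148 and 25.9 CPM, so that T1074, labelled epithelial, was near 0 for both, while of the keratins KRT8 averaged 616, 584 and 437 CPM, KRT18 328, 340 and 150 CPM and KRT19 64.0, 989 and 162 CPM. The mesenchymal markers VIM (634, 0.125 and 1690 CPM), CDH2 (193, 2.41 and 39.8 CPM) and FN1 (1380, 3.84 and 1670 CPM) were all lowest in PEO-4. Of 5 markers of leukocytes and endothelium, PTPRC, CD3E and VWF stayed at or below 0.682 CPM, PECAM1 at or below 2.05 CPM and CD68 ranged from 1.1 to 10.4 CPM. The part of these differences in the antisense results was not tested.

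Many antisense genes were detected, mostly at low levels. Of the 1810 genes, 1201 (66.4%) had an expected count above 0 in 3 or more of the 4 libraries of some line. T1074 held 926 of them, PEO-4 1002 and SKOV-3 953, with 737 common to the 3 lines. By this rule 66, 120 and 72 were found in just the respective line, though they may be above 0 in fewer libraries of another. In all 12 libraries, 306 stood at 0. Requiring an expected count of at least 10 left 467, 539 and 498, and requiring a TPM of at least 0.1 left 517, 469 and 422, so that which line held the most changed with the rule. The rules on counts take no account of depth. The same shares over all lncRNA genes are not given here, so that nothing particular to antisense genes is read from these numbers. The counts sufficed for a test in 649 (35.9%), against 18.9% of all lncRNA genes and 75.3% of protein-coding genes. The median of the 649 was 0.734, 0.967 and 0.646 CPM, listed as T1074, PEO-4, SKOV-3. The tested lncRNA genes as a whole had medians of 0.474, 0.684 and 0.43 CPM, and tested protein-coding genes of 19.4, 15.3 and 17.7 CPM. An average of over 10 CPM was reached by 29, 38 and 34 of the 649, while 385, 328 and 403 stayed under 1 CPM.

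Against T1074, more antisense genes were higher than lower in PEO-4, and more were lower than higher in SKOV-3. Differences were tested for all genes with enough counts by the quasi-likelihood test of edgeR, p-values were adjusted by Benjamini-Hochberg over the genes tested and held to 0.05, and changes are log2 fold changes. In PEO-4, 264 of the 649 tested antisense genes (40.7%) were higher and 166 (25.6%) lower than in T1074, while 36.3% of all genes tested were higher and 37.8% lower. In SKOV-3, 162 (25.0%) were higher and 228 (35.1%) lower than in T1074, against 33.3% and 34.5% of all genes. Between the cancer lines, 313 (48.2%) were higher in PEO-4 and 143 (22.0%) lower, against 38.5% and 36.7%. The median change of the tested antisense genes was 0.32, -0.24 and 0.62 in these comparisons, and that of all genes -0.01, -0.03 and 0.05. The 3333 tested lncRNA genes, antisense genes included, leaned the same way, with 44.7%, 25.5% and 50.2% higher and 21.4%, 30.8% and 21.7% lower. Of the 1371 distinct partners tested, 35.4% were higher and 44.4% lower in PEO-4 than in T1074, 38.6% and 36.6% in SKOV-3, and 34.8% and 44.2% in PEO-4 against SKOV-3. The tested protein-coding genes as a whole stood at 33.4% and 43.3%, 36.0% and 35.9%, and 34.4% and 41.9% in the same order. Nothing particular to the partners is read from these shares. The comparisons share libraries, since each line stands in 2 of them. In bulk RNA, fewer cells with a transcript and less of it per cell cannot be told apart.

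Both partners had enough counts in 616 pairs, with 607 distinct partners. In another 24 pairs the antisense gene alone was tested, and 9 tested antisense genes had no partner. By GENCODE 44, exons of the antisense gene and its partner share bases in 484 of the 616 pairs, the spans overlap with exons apart in 102, and the genes lie head to head with spans apart in 27. The remaining 3 pairs are arranged otherwise and, named here for that reason after their values were seen, are DNAJC9-AS1, LYRM4-AS1 and FAM131B-AS2. Of all 1794 pairs, 1088 share exon bases, 631 overlap with exons apart and 49 lie head to head.

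Where both partners passed the test, they mostly moved in the same direction. In PEO-4 against T1074, both passed in 334 of the 616 pairs, and 269 of these moved together (80.5% of the 334, 43.7% of all pairs), 156 upward and 113 downward. Opposite directions were found in 65 pairs, with the antisense gene higher and the partner lower in 47 and the reverse in 18. The antisense gene alone passed in 74 pairs, the partner alone in 155 and neither in 53. In SKOV-3 against T1074, 235 pairs moved together (81.9% of 287, 38.1% of all pairs), 99 upward and 136 downward, and 52 moved apart, 20 with the antisense gene higher and 32 with it lower. In PEO-4 against SKOV-3, 246 moved together (73.4% of 335, 39.9% of all pairs), 156 upward and 90 downward, and 89 moved apart, 67 with the antisense gene higher and 22 with it lower. Joint movement was also frequent in other opposite-strand pairs of a lncRNA and a protein-coding gene. Of 1184 such pairs outside the -AS set, with overlapping spans or starts within 5 kb, both partners moved together in 43.8%, 32.9% and 40.8% in the 3 comparisons, which is 82.7%, 81.4% and 76.1% of those where both passed. Among 271 pairs of a divergent transcript (symbol ending with -DT) and its partner, the shares of all pairs were 38.7%, 30.6% and 37.3%. The shares of -AS pairs that moved together lie near those of opposite-strand pairs in general, and nothing particular to -AS pairs is read from them.

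**Figure D1:**
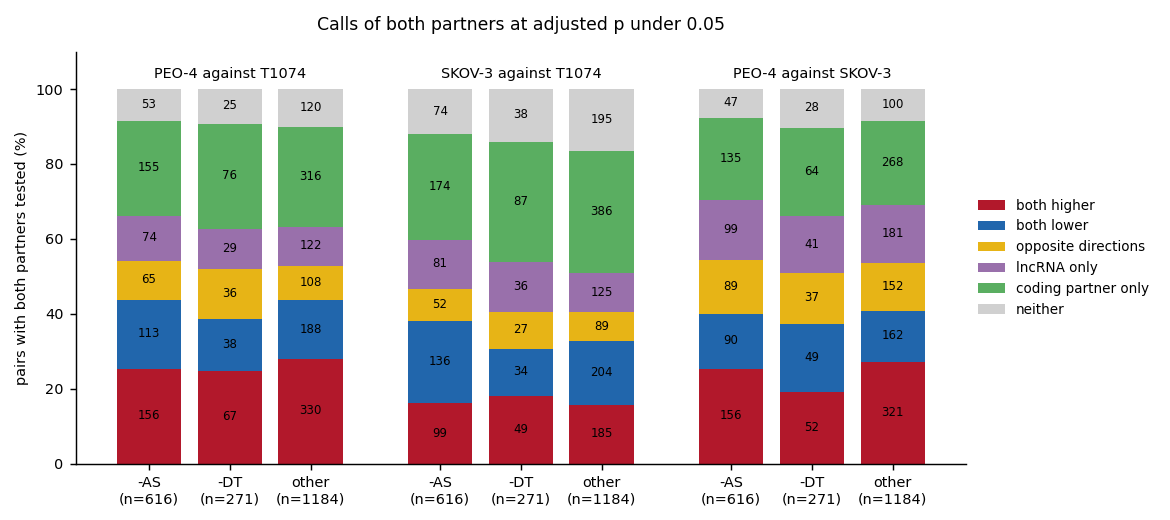
Share of pairs, in percent of those with both partners tested, by the calls of both partners at an adjusted p under 0.05, for -AS genes, -DT genes and other opposite-strand lncRNA genes in each comparison. In each comparison the pairs that moved in the same direction (red and blue) outnumber those in opposite directions (yellow), for instance 269 against 65 of the 616 -AS pairs in PEO-4 against T1074.

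The sizes of the changes were related only in part. Across the 616 pairs the Spearman correlation of the changes was 0.61 in PEO-4 against T1074, 0.57 in SKOV-3 against T1074 and 0.54 in PEO-4 against SKOV-3, a description over pairs that share the same libraries and, in part, reads. The 1184 other opposite-strand pairs gave 0.63, 0.52 and 0.57 and the 271 -DT pairs 0.56, 0.48 and 0.48. Nothing particular to -AS pairs is read from these correlations. The median absolute change was 1.12 for the antisense genes and 1.0 for the partners in the first comparison, 0.91 and 0.83 in the second and 1.22 and 0.93 in the third. The log2 ratio of antisense to sense level, negative where it moved toward the partner, was tested for each pair as the interaction of partner and line in edgeR, with each library as a block. It changed in 345 of the 616 pairs (56.0%) in PEO-4 against T1074, 244 toward the antisense gene and 101 toward the partner, beside 51.3% of the 1184 other pairs. In SKOV-3 relative to T1074 it changed in 278 (45.1%), 114 toward the antisense gene and 164 toward the partner, beside 43.0%. In PEO-4 relative to SKOV-3 it changed in 394 (64.0%), 289 toward the antisense gene and the others toward the partner, beside 60.9%. The other opposite-strand pairs leaned the same way, with 464 toward the lncRNA and 143 toward the coding gene in the first comparison, 203 and 306 in the second and 568 and 153 in the third, so that nothing particular to -AS pairs is read from these directions. No ratio could be estimated in the line where both partners were at 0 for PRKCQ-AS1 and CADM3-AS1 (SKOV-3), BBOX1-AS1 (T1074) and CDH13-AS2 (PEO-4), and CADM3-AS1 is named for this after its values were seen.

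**Figure D2:**
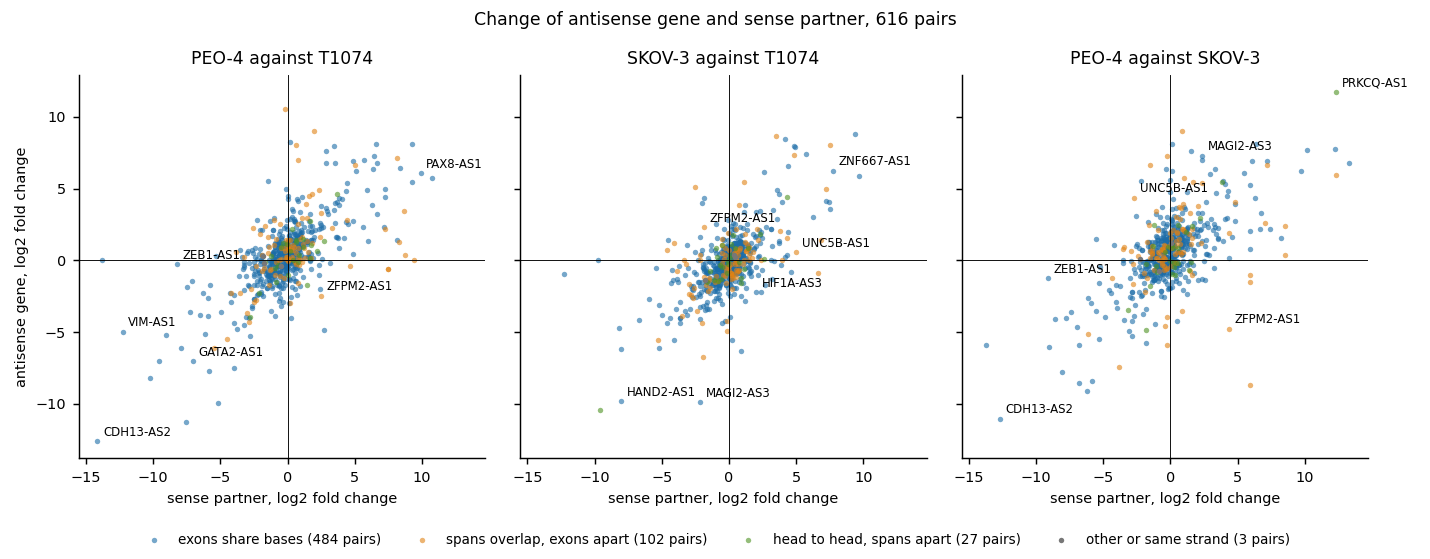
Log2 fold change of the antisense gene (y axis) against that of its partner (x axis) for the 616 pairs in the 3 comparisons, 1 point per pair, coloured by arrangement; genes at 0 in a line are drawn at their fitted value, which depends on the prior count. Most points lie at the lower left and upper right, with Spearman correlations of 0.61, 0.57 and 0.54, while ZEB1-AS1 lies near 0 on the y axis with ZEB1 far to the left in PEO-4 against T1074, and ZFPM2-AS1 lies at the upper left or lower right in each comparison.

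Exon bases shared by both partners matter for reading these counts, since the library kit was directional but the strand setting of the read counting is not given in the sources used here. If strand was not used, reads from a stretch where sense and antisense exons overlap cannot be told apart. Where exons share bases, 219 pairs moved together and 50 apart of 484 in PEO-4 against T1074, 189 and 41 in SKOV-3 against T1074, and 193 and 66 in PEO-4 against SKOV-3. The pairs together made up 81.4%, 82.2% and 74.5% of those where both passed, beside 86.4%, 78.8% and 78.4% in other opposite-strand pairs with shared exon bases. Where spans overlap but exons lie apart, the counts were 38 and 12, 35 and 8, and 41 and 19 of 102. These shares were 76.0%, 81.4% and 68.3%, beside 77.6%, 88.3% and 78.3% in other opposite-strand pairs arranged so. In the 27 head-to-head pairs, which share no transcribed base in the annotation, 12, 10 and 11 moved together, which is 80.0%, 76.9% and 73.3% of those where both passed. Other head-to-head pairs gave 78.6%, 81.4% and 67.6%, and head-to-head -DT pairs 73.1%, 75.4% and 74.5%. Of the 27 -AS pairs, 3, 3 and 4 moved apart. The latter, named after their values were seen, were RTCA-AS1, UBAC2-AS1 and SEPSECS-AS1 in the first comparison, RTCA-AS1, URB1-AS1 and SEPSECS-AS1 in the second, and RTCA-AS1, UBAC2-AS1, URB1-AS1 and PAN3-AS1 in the third. In the 34 pairs with at least 50% of the antisense exon bases inside partner exons, 20, 15 and 15 moved together, which is 90.9%, 93.8% and 88.2% of those where both passed. Over all 616 -AS pairs these shares were 80.5%, 81.9% and 73.4%, lower in each comparison. The 164 other opposite-strand pairs with as much of their exons shared gave 86.8%, 76.7% and 82.4%. All 1184 other opposite-strand pairs gave 82.7%, 81.4% and 76.1%, so that this set was mixed, with a lower share under exon sharing in SKOV-3 against T1074. The shares of the 34 -AS pairs rest on 22, 16 and 17 pairs where both passed, and the differences were not tested. By distance between starts, 83, 68 and 67 of 179 pairs moved together within 1 kb, 68, 59 and 64 of 149 pairs from 1 to 10 kb, and 118, 108 and 115 of 288 pairs farther apart. In other opposite-strand pairs these counts were 145, 107 and 130 of 358, 113, 87 and 112 of 225, and 260, 195 and 241 of 601. Nothing particular to -AS pairs is read from arrangement or distance.

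The levels of antisense genes that lie almost wholly inside partner exons varied. Antisense genes with at least 90% of their exon bases inside partner exons, beside a partner of 10 TPM or more, numbered 9, 5 and 7 by line, with T1074 first and SKOV-3 last. The antisense gene was at 0 in all 4 libraries in 3, 2 and 3 of these pairs and under 1% of the partner's TPM in 6, 3 and 5, with a median of 0.0657%, 0.0988% and 0.0299% of the partner. PHLDA1-AS1, singled out after its values were seen, has 97.2% of its exon bases inside PHLDA1 and stood at 58.9% of the TPM of PHLDA1 in SKOV-3. Since RSEM divides ambiguous reads by estimate, these levels do not give the strand setting, and its part in the results was not tested.

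Per length, antisense genes were mostly far below their partners. The median TPM of the antisense gene was 7.10%, 9.42% and 5.51% of that of its partner, with the lines listed as before. It lay above the partner in 75 pairs (12.2%), 84 (13.6%) and 89 (14.4%), and in 43 pairs in all 3 lines. Medians were 7.63%, 9.42% and 5.84% where exons share bases, 5.42%, 10.4% and 3.47% where spans overlap with exons apart, and 6.1%, 9.34% and 5.43% in head-to-head pairs. The TPM of other opposite-strand pairs was not set beside these, so that nothing particular to -AS pairs is read from the levels.

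**Figure D3:**
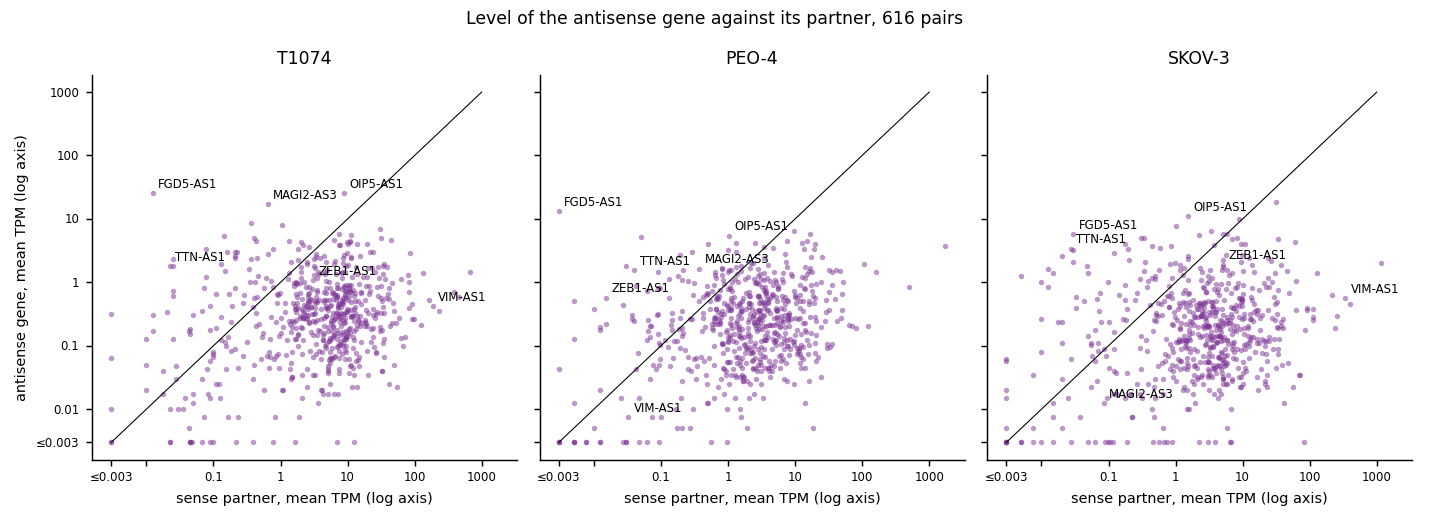
Mean TPM over 4 libraries of the antisense gene (y axis, log scale) against that of its partner (x axis, log scale) in each line for the 616 pairs, 1 point per pair, with levels of 0.003 TPM or less drawn at the edge and the diagonal marking equal TPM. Points above the diagonal, from 75 in T1074 to 89 in SKOV-3, have more antisense than sense RNA per length.

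Some of the most abundant antisense genes outweighed their partners. FGD5-AS1 (chromosome 3, 14920347 to 14948424, minus strand) lies opposite FGD5, an exchange factor for a small GTPase known from endothelial cells. It measured 134, 179, 146 and 166 CPM in T1074, 126, 136, 150 and 128 in PEO-4 and 45.6, 46, 49 and 47.6 in SKOV-3, whereas FGD5 ranged over 0.0229 to 0.124, 0 to 0.0216 and 0.328 to 0.471 CPM. The SKOV-3 libraries were lowest for FGD5-AS1 and highest for FGD5, without overlap, while T1074 and PEO-4 overlapped in FGD5-AS1. In SKOV-3 versus T1074, FGD5-AS1 changed by -1.73 (SE 0.11, adjusted p = 4.56e-09) and FGD5 by 2.69 (SE 0.45, adjusted p = 0.000104) in edgeR. In PEO-4 relative to T1074 FGD5-AS1 did not pass, at -0.21 (SE 0.10, adjusted p = 0.0881), though it did without T1074 replicate 1 (-0.27) and with library sizes as the only scaling (-0.37). Its mean TPM was 2030 times that of FGD5 in T1074 and 191 times in SKOV-3, and their exons share 176 bases.

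OIP5-AS1 (chromosome 15, 41283958 to 41322392, plus strand), known in fish as cyrano and described as a sponge of microRNAs, lies opposite OIP5, a factor of centromere assembly. It measured 353, 459, 354 and 330 CPM in T1074, 152, 122, 132 and 152 in PEO-4 and 232, 275, 258 and 313 in SKOV-3. The lines did not overlap, with T1074 highest and PEO-4 lowest. OIP5 averaged 17.9 ± 3.66, 3.64 ± 0.889 and 4.68 ± 0.98 CPM in the order T1074, PEO-4, SKOV-3 (SD, n = 4). Both partners were lower than in T1074 in PEO-4, at -1.42 (SE 0.13, adjusted p = 2.48e-07) and -2.29 (SE 0.21, adjusted p = 1.88e-07) in edgeR, and in SKOV-3, at -0.47 (SE 0.13, adjusted p = 0.00548) and -1.93 (SE 0.21, adjusted p = 1.23e-06). The ratio moved toward OIP5-AS1 in both, by 0.88 (SE 0.28, adjusted p = 0.0146) and 1.46 (SE 0.28, adjusted p = 0.000421).

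MAGI2-AS3 (chromosome 7, 79452877 to 79471208, plus strand) lies opposite MAGI2, a scaffold protein of cell junctions. It measured 112, 88.9, 98.9 and 110 CPM in T1074, 17, 16.6, 18.3 and 16.8 in PEO-4 and 0.078, 0.0769, 0.0428 and 0.225 in SKOV-3. The lines were fully apart. MAGI2 measured 7.8, 5.2, 8.4 and 6.82 CPM, 9.49, 7.04, 6.65 and 9.6 CPM and 1.58, 1.29, 1.91 and 1.52 CPM in the same order. Against T1074, MAGI2-AS3 was lower in PEO-4, at -2.58 (SE 0.16, adjusted p = 2.92e-09) in edgeR, where MAGI2 did not pass at 0.22 (SE 0.19, adjusted p = 0.302). In SKOV-3 both were lower, at -9.88 (SE 0.25, adjusted p = 9.67e-13) and -2.16 (SE 0.20, adjusted p = 3.22e-07). The ratio moved toward MAGI2 in both, by -2.79 (SE 0.26, adjusted p = 4.72e-08) and -7.74 (SE 0.35, adjusted p = 4.02e-12).

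PHLDA1-AS1, opposite the growth factor-induced gene PHLDA1, measured 1.48, 1.59, 2.97 and 1.66 CPM in T1074, 0.728, 1.6, 0.867 and 1.15 in PEO-4 and 28.1, 21.2, 18.6 and 14.7 in SKOV-3. SKOV-3 stood above both other lines. In SKOV-3 against T1074 the antisense gene rose by 3.41 (SE 0.29, adjusted p = 1.03e-07) and PHLDA1 by 2.33 (SE 0.27, adjusted p = 2.72e-06) in edgeR. The exons of PHLDA1 hold 97.2% of the exon bases of PHLDA1-AS1, so that the values of this pair depend on the strand of the reads. SMARCA5-AS1, opposite the gene of a chromatin-remodelling ATPase, averaged 9.07 ± 1.04, 5.59 ± 0.969 and 23.4 ± 2.02 CPM in the order T1074, PEO-4, SKOV-3 (SD, n = 4), without overlap. It moved with SMARCA5 in PEO-4, by -0.70 (SE 0.14, adjusted p = 0.000431) and -1.04 (SE 0.10, adjusted p = 2.29e-07) in edgeR, and in SKOV-3, by 1.37 (SE 0.14, adjusted p = 7.76e-07) and 0.82 (SE 0.10, adjusted p = 3.15e-06). SMARCA5 exons hold 42.3% of the exon bases of SMARCA5-AS1. THAP9-AS1, opposite a gene derived from a transposase, was lower than T1074 in PEO-4, at -0.35 (SE 0.14, adjusted p = 0.0355), and higher in SKOV-3, by 0.57 (SE 0.14, adjusted p = 0.00252), in edgeR, while THAP9 did not pass in either. The call of THAP9-AS1 in PEO-4 was lost on leaving out any of 5 libraries, at -0.32 to -0.19, and in DESeq2, at -0.28, and that in SKOV-3 was lost with library sizes as the only scaling, at 0.37. THAP9 itself passed in PEO-4 without T1074 replicate 4, at -0.46, and in SKOV-3 without T1074 replicate 2, at 0.38. PSMA3-AS1, opposite a proteasome subunit, moved against PSMA3 in SKOV-3, by -0.27 (SE 0.11, adjusted p = 0.0339) and 0.69 (SE 0.15, adjusted p = 0.000856) in edgeR. This call of PSMA3-AS1 was lost on leaving out any single PEO-4 or SKOV-3 library or T1074 replicate 1, at -0.28 to -0.17. It was also lost in DESeq2, at -0.23.

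Ranked by the TPM averaged over the 3 lines, antisense gene over partner, FGD5-AS1, TTN-AS1, OR2A1-AS1, NUTM2A-AS1 and PRR34-AS1 came first. Within single lines other pairs could rank higher, such as PCDHB1-AS1, at 128 times PCDHB1 in SKOV-3. TTN-AS1 (chromosome 2, 178521183 to 178779963, plus strand) lies opposite TTN, which encodes the muscle protein titin. It measured 6.23, 6.29, 6.82 and 7.3 CPM in T1074, 11.2, 9.19, 8.55 and 10.2 in PEO-4 and 17.2, 18.3, 13.7 and 15.6 in SKOV-3. The lines did not overlap, with SKOV-3 highest. Its mean TPM was 7930%, 3900% and 12200% of that of TTN in T1074, PEO-4 and SKOV-3. Both rose against T1074 in PEO-4, by 0.55 (SE 0.13, adjusted p = 0.00149) and 1.55 (SE 0.19, adjusted p = 4.5e-06) in edgeR, and in SKOV-3, by 1.28 (SE 0.13, adjusted p = 7.98e-07) and 0.91 (SE 0.19, adjusted p = 0.000744). TTN exons hold 54.9% of the exon bases of TTN-AS1. NUTM2A-AS1 and OR2A1-AS1 lie in duplicated loci with near-identical copies, among which RSEM divides reads by estimate, so that their levels are uncertain. PRR34-AS1, whose partner PRR34 is itself annotated as a lncRNA, averaged 0.677 ± 0.172, 0.835 ± 0.112 and 1.47 ± 0.208 CPM beside 0.436 ± 0.0873, 0.401 ± 0.16 and 0.393 ± 0.132 CPM of PRR34, in the order T1074, PEO-4, SKOV-3 (SD, n = 4).

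Among the pairs with large joint losses in PEO-4 were those of CDH13, HAND2 and GATA2. CDH13-AS2 (chromosome 16, 83789967 to 83807834, minus strand) overlaps CDH13, which encodes T-cadherin, an adhesion molecule without a cytoplasmic tail, and 46.8% of its exon bases lie in CDH13 exons. It measured 15.1, 14.7, 22.7 and 19.8 CPM in T1074, 0 in all 4 PEO-4 libraries and 5.5, 5.83, 6.96 and 6.15 CPM in SKOV-3. CDH13 measured 47.1, 42.4, 70.9 and 53.4 CPM in T1074, 0 in all 4 PEO-4 libraries and 18.6, 20.8, 20.5 and 17.7 CPM in SKOV-3. Both were thus highest in T1074 and at 0 in PEO-4, and no lines overlapped. Against a floor of 3 counts per library, CDH13-AS2 was at least 250-fold lower and CDH13 at least 738-fold lower in PEO-4 than in T1074 (edgeR adjusted p = 2.12e-10 and 5.32e-11). In SKOV-3 they were lower than in T1074, at -1.57 (SE 0.17, adjusted p = 8.37e-06) and -1.46 (SE 0.16, adjusted p = 7.1e-06) in edgeR, and the ratio did not pass at -0.11 (SE 0.20, adjusted p = 0.695).

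HAND2-AS1 (chromosome 4, 173527270 to 173659696, plus strand) and HAND2, a transcription factor of heart and mesenchyme, have the shared window printed above. HAND2-AS1 measured 8.71, 7.88, 5.89 and 6.63 CPM in T1074, 0 in all 4 PEO-4 libraries and 0, 0, 0.0214 and 0 in SKOV-3. HAND2 measured 7.95, 11.5, 5.72 and 9.03 CPM, 0.0879, 0.0965, 0 and 0 CPM and 0.039, 0.0192, 0.0214 and 0.041 CPM in the same order. Both were at several CPM in T1074 and at or near 0 in the cancer lines, which did not overlap T1074. HAND2-AS1 was at least 101-fold lower in PEO-4 than in T1074 (edgeR adjusted p = 3.93e-09). It rests on 1 count in SKOV-3, where T1074 was 1410-fold higher (95% interval 252 to 55700, counting error only). HAND2 was lower, at -7.57 (SE 0.49, adjusted p = 4.81e-09) in PEO-4 and at -8.02 (SE 0.50, adjusted p = 4.68e-09) in SKOV-3 in edgeR.

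GATA2-AS1 (chromosome 3, 128489212 to 128502970, plus strand) lies opposite GATA2, a zinc finger transcription factor of blood and endothelium. It measured 5.87, 4.35, 9.01 and 7.14 CPM in T1074, 0.0293, 0.0724, 0.0645 and 0.0216 in PEO-4 and 1.01, 0.711, 0.621 and 1.21 in SKOV-3. GATA2 measured 16.8, 15, 23.5 and 16.5 CPM, 0.117, 0.193, 0.107 and 0.108 CPM and 1.52, 1.4, 1.56 and 1.29 CPM in the same order. Both stood highest in T1074 and lowest in PEO-4, without overlap. Against T1074, GATA2-AS1 changed by -7.03 (SE 0.41, adjusted p = 1.48e-09) and GATA2 by -7.07 (SE 0.24, adjusted p = 8.69e-12) in PEO-4, and by -2.89 (SE 0.28, adjusted p = 4.87e-07) and -3.64 (SE 0.18, adjusted p = 5.31e-10) in SKOV-3, in edgeR. Their exons share 78 bases, 2.7% of those of GATA2-AS1.

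**Figure D4:**
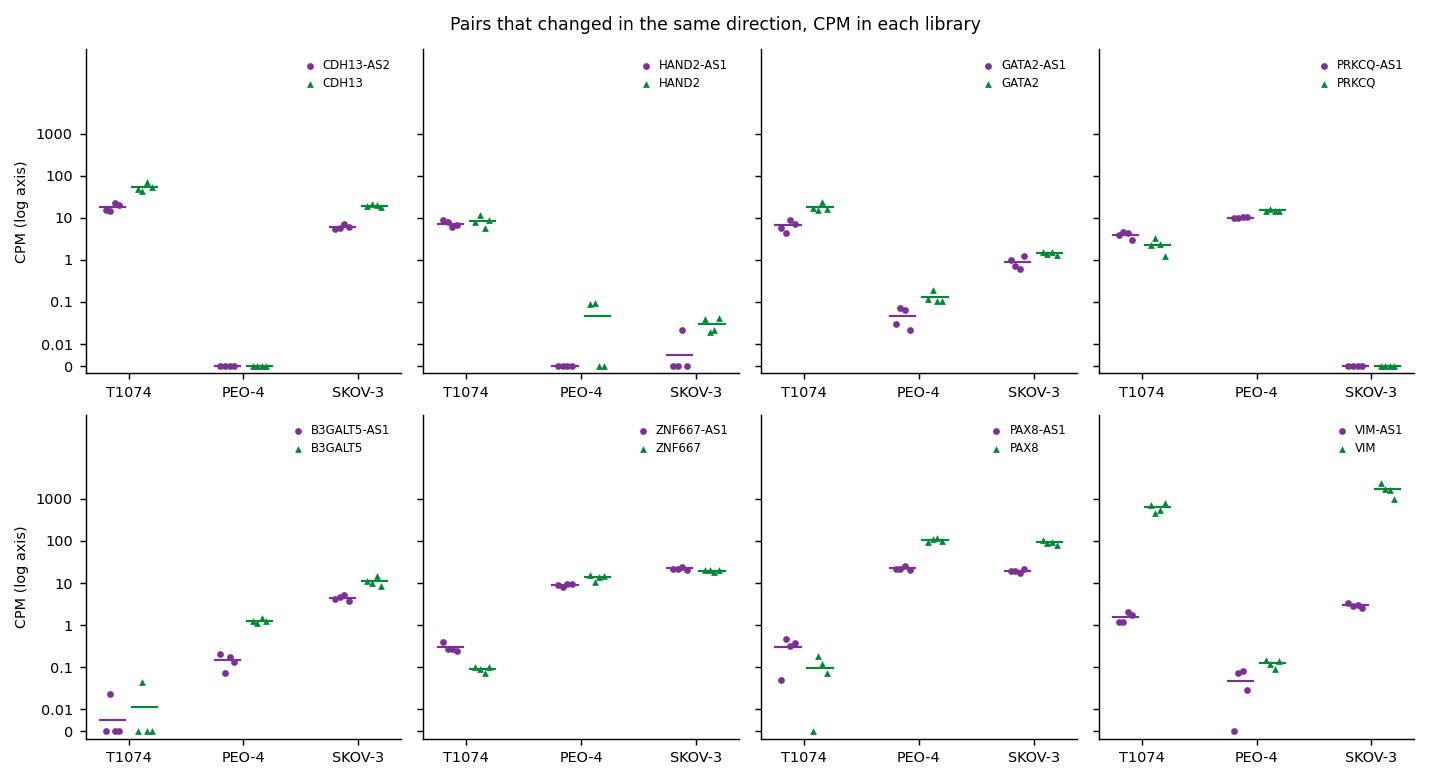
CPM in each library (log axis, with 0 drawn at the bottom) of the antisense gene (purple circles) and its partner (green triangles) in T1074, PEO-4 and SKOV-3 for pairs that changed in the same direction; horizontal bars are means of 4 libraries. The circles and triangles of GATA2-AS1 and GATA2 fall together in PEO-4 and partly return in SKOV-3, and those of VIM-AS1 span a narrower range than those of VIM.

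PRKCQ-AS1 (chromosome 10, 6580419 to 6616921, plus strand) and PRKCQ, a protein kinase C known from T cell signalling, lie head to head with spans apart. PRKCQ-AS1 measured 3.96, 4.6, 4.43 and 2.96 CPM in T1074, 9.96, 9.63, 10.3 and 10.3 in PEO-4 and 0 in all 4 SKOV-3 libraries. PRKCQ measured 2.21, 3.32, 2.33 and 1.22 CPM in T1074, 14.8, 16, 14.3 and 14.7 in PEO-4 and 0 in all 4 SKOV-3 libraries. Both were highest in PEO-4 and at 0 in SKOV-3, without overlap. In SKOV-3 relative to T1074, PRKCQ-AS1 was at least 66.0-fold lower and PRKCQ at least 37.5-fold lower (edgeR adjusted p = 1.43e-09 and 8.85e-08). In PEO-4 versus T1074 they rose by 1.33 (SE 0.17, adjusted p = 2.54e-05) and 2.71 (SE 0.26, adjusted p = 1.64e-06) in edgeR, and the ratio moved toward PRKCQ by -1.43 (SE 0.23, adjusted p = 9.21e-05).

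B3GALT5-AS1 (chromosome 21, 39597147 to 39612910, minus strand) and B3GALT5, a galactosyltransferase of glycan chains, were highest in SKOV-3. B3GALT5-AS1 measured 0, 0.0229, 0 and 0 CPM in T1074, 0.205, 0.0724, 0.172 and 0.13 in PEO-4 and 4.29, 4.65, 5.07 and 3.79 in SKOV-3. B3GALT5 measured 0, 0.0458, 0 and 0 CPM, 1.29, 1.11, 1.48 and 1.28 CPM and 11.3, 10, 15.1 and 8.52 CPM in the same order. T1074 was lowest for both, and no lines overlapped. With 1 and 2 counts in T1074, SKOV-3 was 643-fold higher for B3GALT5-AS1 (95% interval 115 to 25400, counting error only) and 808-fold higher for B3GALT5 (223 to 6680). In PEO-4 versus SKOV-3 the changes were -4.93 (SE 0.31, adjusted p = 3.47e-09) and -3.12 (SE 0.25, adjusted p = 4.21e-08) in edgeR.

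ZNF667-AS1 (chromosome 19, 56477250 to 56504362, plus strand) and the zinc finger gene ZNF667 rose in both cancer lines. ZNF667-AS1 measured 0.401, 0.275, 0.269 and 0.249 CPM in T1074, 8.93, 8.03, 9.76 and 9.58 in PEO-4 and 21.8, 21.9, 24.6 and 20.6 in SKOV-3. ZNF667 measured 0.1, 0.0916, 0.0735 and 0.0995 CPM, 15.6, 10.4, 14.3 and 14.9 CPM and 20, 20.6, 18.4 and 20.1 CPM in the same order. T1074 was far below both other lines in both genes. Against T1074 the changes were 4.97 (SE 0.17, adjusted p = 7.1e-12) and 7.22 (SE 0.21, adjusted p = 2.21e-12) in PEO-4, and 6.26 (SE 0.17, adjusted p = 1.35e-12) and 7.73 (SE 0.21, adjusted p = 1.59e-12) in SKOV-3, in edgeR. The ratio moved toward ZNF667 in PEO-4, by -2.22 (SE 0.36, adjusted p = 4.85e-05).

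Other pairs with large joint changes held channel, barrier and adhesion proteins. AQP5-AS1, opposite the water channel AQP5, averaged 0.0123 ± 0.0143, 2.38 ± 0.335 and 0.0345 ± 0.0246 CPM and AQP5 0.121 ± 0.1, 40.1 ± 5.91 and 0.00535 ± 0.0107 CPM in the order T1074, PEO-4, SKOV-3 (SD, n = 4), both highest in PEO-4. With 2 counts in T1074, AQP5-AS1 was 174-fold higher in PEO-4 (95% interval 48.0 to 1440, counting error only), and AQP5 rose by 8.17 (SE 0.31, adjusted p = 2.76e-11) in edgeR. FLG-AS1, opposite the epidermal barrier gene filaggrin, averaged 0.215 ± 0.136, 2.66 ± 0.169 and 0.0102 ± 0.0205 CPM and FLG 0.787 ± 0.596, 9.09 ± 0.85 and 0.00535 ± 0.0107 CPM, again highest in PEO-4. In PEO-4 against T1074 they rose by 3.52 (SE 0.40, adjusted p = 1.88e-06) and 3.46 (SE 0.40, adjusted p = 1.92e-06) in edgeR. CALML3-AS1, opposite a calmodulin-like gene of epithelia, averaged 0.0577 ± 0.0997, 6.05 ± 1.47 and 0.0252 ± 0.0196 CPM and CALML3 0.0353 ± 0.0443, 14.2 ± 1.68 and 0 ± 0 CPM, and PEO-4 stood highest here too. CALML3-AS1 was higher in PEO-4 than in SKOV-3 by 7.75 (SE 0.61, adjusted p = 3.55e-08) in edgeR, and CALML3, at 0 in SKOV-3, was at least 234-fold higher. PCDHB1-AS1, in a cluster of similar protocadherin genes whose counts are therefore uncertain, averaged 0.0308 ± 0.0534, 10.1 ± 1.19 and 9.03 ± 1.39 CPM and PCDHB1 0.00573 ± 0.0115, 6.06 ± 0.404 and 0.299 ± 0.0731 CPM. The cancer lines overlapped in the antisense gene and not in PCDHB1, and the ratio changed by -4.17 (SE 0.30, adjusted p = 3.23e-09) in PEO-4 against SKOV-3.

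ADAMTS9-AS2, opposite a protease of the extracellular matrix, measured 0, 0.0229, 0 and 0 CPM in T1074, 0.146, 0, 0.0215 and 0.0216 in PEO-4 and 2.22, 3.13, 2.57 and 2.64 in SKOV-3. With 1 count in T1074, SKOV-3 was 383-fold higher (95% interval 68.4 to 15100, counting error only), and ADAMTS9 rose by 7.49 (SE 0.23, adjusted p = 5.28e-12) in edgeR. ADAMTS9 was high in PEO-4 too, at 19.2 ± 3.68 CPM beside 23.1 ± 0.346 in SKOV-3 (SD, n = 4), while the antisense gene was near 0 in PEO-4, and the ratio changed by -5.62 (SE 0.45, adjusted p = 5.89e-09) in PEO-4 against SKOV-3. PDE7B-AS1, opposite a cAMP phosphodiesterase, averaged 0.97 ± 0.549, 0.0262 ± 0.0192 and 5.79 ± 0.747 CPM and PDE7B 35.3 ± 6.48, 0.0616 ± 0.0316 and 18.2 ± 3.32 CPM in the order T1074, PEO-4, SKOV-3. In PEO-4 relative to T1074 both were lower, at -5.20 (SE 0.57, adjusted p = 1.2e-06) and -9.02 (SE 0.29, adjusted p = 5.45e-12) in edgeR. In SKOV-3 versus T1074 they moved apart, by 2.55 (SE 0.33, adjusted p = 7.82e-06) and -0.96 (SE 0.17, adjusted p = 0.000162).

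Among partners that mark a lineage, PAX8 and VIM moved with their antisense genes but by different amounts, though the ratio did not pass for VIM in SKOV-3 against T1074. PAX8-AS1 (chromosome 2, 113211421 to 113276581, plus strand) measured 0.0502, 0.458, 0.318 and 0.373 CPM in T1074, 22.1, 22, 25.2 and 20.9 in PEO-4 and 19.8, 19.7, 17.3 and 21.4 in SKOV-3. PAX8 measured 0, 0.183, 0.122 and 0.0746 CPM in T1074 and 96, 114, 117 and 98.1 CPM in PEO-4, and averaged 92.4 ± 10.7 CPM (SD, n = 4) in SKOV-3. T1074 was far below both cancer lines for both partners, and the cancer lines overlapped. PAX8-AS1 rose by 6.08 (SE 0.25, adjusted p = 4.49e-11) in PEO-4 and by 5.87 (SE 0.24, adjusted p = 7.87e-11) in SKOV-3 in edgeR. PAX8 rose by 9.89 (SE 0.26, adjusted p = 9.64e-13) and 9.68 (SE 0.26, adjusted p = 1.39e-12). The ratio thus moved toward PAX8, by -3.84 (SE 0.36, adjusted p = 6.81e-08) and -3.84 (SE 0.36, adjusted p = 1.27e-07). In mean TPM, PAX8-AS1 was 12.3% of PAX8 in PEO-4 and 9.92% in SKOV-3.

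VIM-AS1 (chromosome 10, 17214239 to 17230018, minus strand) lies opposite VIM, the intermediate filament of mesenchymal cells. It measured 1.21, 1.22, 2.1 and 1.71 CPM in T1074, 0, 0.0724, 0.0832 and 0.0288 in PEO-4 and 3.27, 2.9, 2.98 and 2.61 in SKOV-3. VIM measured 714, 459, 555 and 806 CPM, 0.146, 0.121, 0.0888 and 0.144 CPM and 2430, 1700, 1650 and 983 CPM in the same order. SKOV-3 was highest and PEO-4 lowest for both, without overlap. In PEO-4 versus T1074 the changes were -4.97 (SE 0.43, adjusted p = 9.28e-08) for VIM-AS1 and -12.27 (SE 0.41, adjusted p = 6.95e-12) for VIM in edgeR, and the ratio moved toward VIM-AS1 by 7.28 (SE 1.03, adjusted p = 1.01e-05). In SKOV-3 they were 0.90 (SE 0.28, adjusted p = 0.0104) and 1.42 (SE 0.24, adjusted p = 9.45e-05), and the ratio did not pass at -0.47 (SE 0.32, adjusted p = 0.264) in edgeR. The TPM of VIM-AS1 was 0.227% of that of VIM in T1074 and 0.167% in SKOV-3, and VIM exons hold 30.9% of its exon bases.

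The pairs of the repressors ZEB1 and ZEB2 differed. ZEB1-AS1 (chromosome 10, 31206278 to 31320447, minus strand) measured 1.99, 3.27, 4.96 and 3.45 CPM in T1074, 3.25, 2, 2.58 and 3.78 in PEO-4 and 6.56, 6.5, 7.96 and 6.83 in SKOV-3. ZEB1 measured 26.3, 25.4, 29.8 and 23.4 CPM, 0.119, 0.0483, 0.0645 and 0.108 CPM and 44.2, 52.2, 47.6 and 48 CPM in the same order. T1074 and PEO-4 overlapped in ZEB1-AS1 and were far apart in ZEB1. In PEO-4 against T1074, ZEB1 was lower, at -8.25 (SE 0.19, adjusted p = 3.14e-13) in edgeR, while ZEB1-AS1 did not pass at -0.25 (SE 0.25, adjusted p = 0.368), and the ratio rose by 8.04 (SE 0.32, adjusted p = 1.4e-12). In SKOV-3 against T1074 both rose, by 1.01 (SE 0.24, adjusted p = 0.00212) and 0.87 (SE 0.11, adjusted p = 9.12e-06). ZEB2-AS1 measured 0.259, 0.206, 0.226 and 0.779 CPM in T1074, 0 in all 4 PEO-4 libraries and 0, 0.0576, 0 and 0.0205 CPM in SKOV-3, while ZEB2 averaged 64.1 ± 9.42, 0.082 ± 0.039 and 5.08 ± 0.42 CPM in the order T1074, PEO-4, SKOV-3 (SD, n = 4). In PEO-4 relative to T1074, ZEB2-AS1 was at least 5.08-fold lower (edgeR adjusted p = 0.000219) and ZEB2 lower, at -9.54 (SE 0.23, adjusted p = 4.29e-13). In SKOV-3 relative to T1074 they were lower, at -4.02 (SE 0.79, adjusted p = 0.000799) and -3.66 (SE 0.15, adjusted p = 6.75e-11) in edgeR. ZEB2 exons hold 41.4% of the exon bases of ZEB2-AS1.

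Other transcription factors gave mixed pairs. GATA6-AS1, opposite a zinc finger factor of endoderm and heart, averaged 1.55 ± 0.736, 0.0537 ± 0.0455 and 0.251 ± 0.0467 CPM and GATA6 28.4 ± 8.2, 2.04 ± 0.494 and 14.8 ± 2.36 CPM in the order T1074, PEO-4, SKOV-3 (SD, n = 4). Against T1074 both were lower in PEO-4, at -4.77 (SE 0.54, adjusted p = 1.61e-06) and -3.79 (SE 0.24, adjusted p = 3.9e-09) in edgeR, and in SKOV-3, at -2.60 (SE 0.43, adjusted p = 8.1e-05) and -0.94 (SE 0.21, adjusted p = 0.00119). FOXD3-AS1, beside a forkhead factor of the neural crest, averaged 0.00573 ± 0.0115, 2.49 ± 0.428 and 3.45 ± 0.615 CPM and FOXD3 0.129 ± 0.163, 1.55 ± 0.349 and 2.61 ± 0.188 CPM. With 1 count in T1074, FOXD3-AS1 was 363-fold higher in PEO-4 (95% interval 64.9 to 14400, counting error only) and 496-fold higher in SKOV-3 (88.7 to 19600). FOXD3 rose by 3.43 (SE 0.53, adjusted p = 3.63e-05) and 4.18 (SE 0.52, adjusted p = 5.82e-06) in edgeR. FOXD3 exons hold 27.6% of the exon bases of FOXD3-AS1.

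NR2F1-AS1 and NR2F1, an orphan nuclear receptor, were lower in SKOV-3 than in T1074, at -3.42 (SE 0.35, adjusted p = 7.98e-07) and -3.94 (SE 0.30, adjusted p = 4.07e-08) in edgeR. NR2F1-AS1 averaged 3.65 ± 1.11, 2 ± 0.427 and 0.341 ± 0.168 CPM in the order T1074, PEO-4, SKOV-3 (SD, n = 4). NR2F2-AS1, beside the related receptor gene NR2F2, averaged 1.94 ± 0.526, 0.243 ± 0.147 and 0.506 ± 0.119 CPM and NR2F2 64.5 ± 24.5, 73 ± 2.54 and 24 ± 2.85 CPM. In PEO-4 versus T1074, NR2F2-AS1 was lower, at -2.96 (SE 0.37, adjusted p = 4.85e-06) in edgeR, while NR2F2 did not pass at 0.18 (SE 0.20, adjusted p = 0.444), and the ratio moved by -3.20 (SE 0.37, adjusted p = 8.29e-07). Without T1074 replicate 4, NR2F2 passed at 0.44. IRF1-AS1 and IRF1, an interferon-response factor, were lower in SKOV-3 than in T1074, at -1.86 (SE 0.27, adjusted p = 2.8e-05) and -0.75 (SE 0.15, adjusted p = 0.000445) in edgeR. IRF1 exons hold 28.8% of the exon bases of IRF1-AS1.

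Pairs that moved apart were fewer. ZFPM2-AS1 (chromosome 8, 105546089 to 106060524, minus strand) overlaps the span of ZFPM2, a cofactor of GATA factors, with exons apart. It measured 0.953, 0.894, 1.84 and 1.24 CPM in T1074, 0.234, 0.217, 0.15 and 0.303 in PEO-4 and 5.22, 6.55, 5.8 and 7.46 in SKOV-3. ZFPM2 measured 17.8, 21.5, 17.9 and 21.3 CPM, 117, 102, 94.9 and 117 CPM and 5.13, 5.51, 5.31 and 5.23 CPM in the same order. The order of the lines was reversed between the partners, and no lines overlapped in either. In PEO-4 against T1074 the changes were -2.45 (SE 0.30, adjusted p = 4.05e-06) for ZFPM2-AS1 and 2.46 (SE 0.11, adjusted p = 9.78e-11) for ZFPM2 in edgeR, and in SKOV-3 2.33 (SE 0.25, adjusted p = 1.12e-06) and -1.89 (SE 0.11, adjusted p = 2.16e-09). In PEO-4 against SKOV-3 they were -4.77 (SE 0.29, adjusted p = 2.86e-09) and 4.35 (SE 0.12, adjusted p = 1.63e-12), and the ratio moved by -9.12 (SE 0.30, adjusted p = 6.59e-14).

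HIF1A, the oxygen-regulated subunit of hypoxia-inducible factor, has 2 tested antisense genes that went different ways in SKOV-3. HIF1A-AS3 (chromosome 14, 61707298 to 61751163, minus strand) measured 4.72, 1.99, 6.96 and 3.08 CPM in T1074, 0.644, 0.603, 0.688 and 0.411 in PEO-4 and 0.916, 0.922, 0.749 and 0.963 in SKOV-3. HIF1A measured 210, 176, 195 and 299 CPM, 140, 137, 129 and 143 CPM and 928, 936, 976 and 763 CPM in the same order. T1074 was highest in HIF1A-AS3 and SKOV-3 in HIF1A, each without overlap with another line. In SKOV-3 versus T1074, HIF1A-AS3 changed by -2.23 (SE 0.33, adjusted p = 3.39e-05) and HIF1A by 2.03 (SE 0.16, adjusted p = 3.96e-08) in edgeR, while in PEO-4 both were lower, at -2.83 (SE 0.35, adjusted p = 4.19e-06) and -0.68 (SE 0.15, adjusted p = 0.000953). HIF1A-AS1 (chromosome 14, 61680723 to 61695892, minus strand) averaged 0.203 ± 0.134, 0.0396 ± 0.0346 and 0.662 ± 0.141 CPM in the order T1074, PEO-4, SKOV-3 (SD, n = 4). It rose in SKOV-3 against T1074 by 1.67 (SE 0.43, adjusted p = 0.00352) in edgeR, and its ratio to HIF1A did not pass at -0.32 (SE 0.40, adjusted p = 0.545). HIF1A exons hold 12.8% of the exon bases of HIF1A-AS1, whose TPM was 0.227% of that of HIF1A in SKOV-3.

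**Figure D5:**
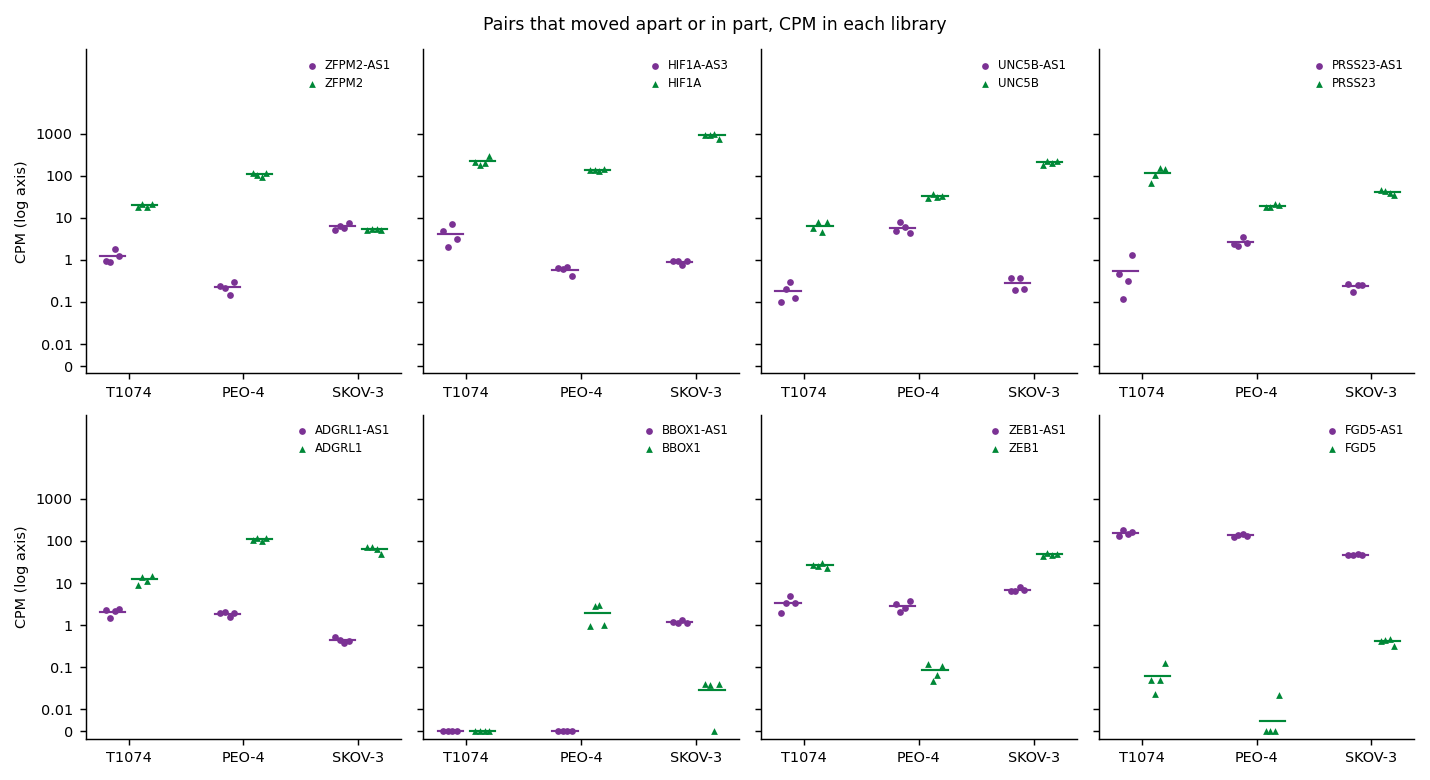
CPM in each library (log axis, with 0 drawn at the bottom) of the antisense gene (purple circles) and its partner (green triangles) in T1074, PEO-4 and SKOV-3 for pairs that moved apart, or of which 1 partner moved; horizontal bars are means of 4 libraries. ZFPM2-AS1 and ZFPM2 cross between PEO-4 and SKOV-3, and ZEB1 averages 0.0849 CPM in PEO-4 beside 2.9 CPM of ZEB1-AS1.

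UNC5B-AS1, inside the span of the netrin receptor gene UNC5B, measured 0.1, 0.206, 0.294 and 0.124 CPM in T1074, 4.95, 7.87, 6.15 and 4.41 in PEO-4 and 0.37, 0.192, 0.364 and 0.205 in SKOV-3. UNC5B measured 5.77, 7.9, 4.56 and 7.96 CPM, 28.8, 37.6, 31.2 and 32.2 CPM and 184, 225, 204 and 221 CPM in the same order. The antisense gene was highest in PEO-4 and the partner in SKOV-3. In PEO-4 relative to SKOV-3 the changes were 4.36 (SE 0.31, adjusted p = 1.46e-08) and -2.68 (SE 0.16, adjusted p = 2.63e-09) in edgeR, while in PEO-4 against T1074 both rose, by 4.92 (SE 0.34, adjusted p = 9.83e-09) and 2.30 (SE 0.17, adjusted p = 1.46e-08). ADGRL1-AS1, opposite the adhesion receptor latrophilin 1, averaged 2.09 ± 0.387, 1.87 ± 0.208 and 0.441 ± 0.0575 CPM and ADGRL1 12.3 ± 2.89, 110 ± 9.05 and 64.2 ± 10.3 CPM in the order T1074, PEO-4, SKOV-3 (SD, n = 4). In SKOV-3 against T1074 they changed by -2.21 (SE 0.22, adjusted p = 6.92e-07) and 2.37 (SE 0.17, adjusted p = 1.73e-08) in edgeR. In PEO-4 relative to T1074, ADGRL1 rose by 3.15 (SE 0.17, adjusted p = 8.46e-10) and ADGRL1-AS1 did not pass at -0.16 (SE 0.20, adjusted p = 0.503).

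PRSS23-AS1, in the span of a serine protease gene, measured 0.452, 0.115, 0.318 and 1.29 CPM in T1074 and 2.34, 2.1, 3.46 and 2.47 in PEO-4. PRSS23 averaged 117 ± 38 and 19.3 ± 1.6 CPM (SD, n = 4). Neither overlapped between these lines, and PEO-4 was higher in the antisense gene and lower in PRSS23, by 2.24 (SE 0.48, adjusted p = 0.000669) and -2.59 (SE 0.21, adjusted p = 4.08e-08) in edgeR. PRKG1-AS1, opposite a cGMP-dependent kinase, averaged 1.31 ± 0.658 CPM in T1074 and 0.039 ± 0.0275 in PEO-4, beside 0.275 ± 0.129 and 1.78 ± 0.322 CPM of PRKG1 (SD, n = 4). The changes, -4.86 (SE 0.61, adjusted p = 5.28e-06) and 2.72 (SE 0.33, adjusted p = 3.58e-06) in edgeR, were the other way round. BBOX1-AS1 was at 0 in all libraries of T1074 and PEO-4 and measured 1.19, 1.15, 1.33 and 1.11 CPM in SKOV-3. BBOX1, an enzyme of carnitine synthesis, was at 0 in T1074 and measured 0.966, 2.87, 3.09 and 0.995 CPM in PEO-4 and 0.039, 0.0384, 0 and 0.041 CPM in SKOV-3. In PEO-4 versus SKOV-3, BBOX1-AS1 was at least 16.5-fold lower (edgeR adjusted p = 1.55e-06) and BBOX1 higher by 5.91 (SE 0.65, adjusted p = 6.28e-06).

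Some antisense genes stood at 0 in all libraries of a line while the partner did not. SH3PXD2A-AS1, in the span of a scaffold gene of podosomes, was at 0 in T1074 and measured 3.72, 4.97, 4.99 and 3.5 CPM in PEO-4 and 0.214, 0.0192, 0.107 and 0.0615 in SKOV-3, while SH3PXD2A averaged 156 ± 9.15, 134 ± 11.3 and 26.6 ± 2.72 CPM in the order T1074, PEO-4, SKOV-3 (SD, n = 4). In PEO-4 versus T1074, SH3PXD2A-AS1 was at least 46.8-fold higher (edgeR adjusted p = 1.68e-07), and SH3PXD2A did not pass at -0.22 (SE 0.10, adjusted p = 0.0611), though it did without T1074 replicate 2 (-0.26) and with library sizes as the only scaling (-0.36). HEY2-AS1 was at 0 in T1074 and SKOV-3 and measured 1.65, 1.37, 0.985 and 2.04 CPM in PEO-4, at least 16.5-fold higher than T1074 (edgeR adjusted p = 5.72e-06). HEY2, a Notch target, rose there by 1.96 (SE 0.50, adjusted p = 0.00246). GNAS-AS1, in the imprinted locus of the stimulatory G protein gene GNAS, measured 0.351, 0.213, 0.0735 and 0.355 CPM in T1074, 0.614, 0.797, 0.648 and 1.12 in PEO-4 and 0 in all 4 SKOV-3 libraries, beside 233 ± 54.4, 451 ± 22.6 and 421 ± 70.8 CPM of GNAS. In SKOV-3 relative to T1074, GNAS-AS1 was at least 4.1-fold lower (edgeR adjusted p = 0.000115) and GNAS rose by 0.86 (SE 0.17, adjusted p = 0.000353). In PEO-4 against SKOV-3, PDE6B-AS1, opposite a phosphodiesterase of rods, was at least 13.3-fold higher (edgeR adjusted p = 1.36e-06) and PDE6B higher by 6.34 (SE 0.33, adjusted p = 5.29e-10). In the same comparison PRDM6-AS1 was at least 22.2-fold lower (edgeR adjusted p = 6.52e-08) and PRDM6, a transcriptional repressor, lower, at -6.18 (SE 0.37, adjusted p = 2.39e-09). Partner exons hold 30.8% of the exon bases of GNAS-AS1, 30.2% of those of PDE6B-AS1 and 27.7% of those of PRDM6-AS1.

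Of the signalling and antigen-processing partners, EGFR, the epidermal growth factor receptor, rose in SKOV-3 against T1074 by 1.27 (SE 0.11, adjusted p = 1.62e-07) and was lower in PEO-4, at -0.66 (SE 0.11, adjusted p = 7.88e-05) in edgeR. EGFR-AS1 averaged 0.267 ± 0.183, 0.135 ± 0.0625 and 0.28 ± 0.0829 CPM in the order T1074, PEO-4, SKOV-3 (SD, n = 4) and did not pass, at 0.20 (SE 0.49, adjusted p = 0.726) and -0.87 (SE 0.55, adjusted p = 0.165), while without T1074 replicate 2 it was lower in PEO-4, at -1.24. GAS6-AS1, opposite a ligand of TAM receptors, averaged 0.728 ± 0.173, 0.851 ± 0.226 and 0.0848 ± 0.0351 CPM and GAS6 70.2 ± 28.8, 208 ± 16.3 and 49.4 ± 4.66 CPM. In SKOV-3 versus T1074 both were lower, at -3.02 (SE 0.36, adjusted p = 3.67e-06) and -0.51 (SE 0.20, adjusted p = 0.0381) in edgeR, and in PEO-4 GAS6 rose by 1.57 (SE 0.21, adjusted p = 7.85e-06) while GAS6-AS1 did not pass at 0.25 (SE 0.29, adjusted p = 0.446). The call of GAS6 in SKOV-3 was lost on leaving out any of 8 libraries, at -0.53 to -0.17, the latter without T1074 replicate 4, which stood at 113 CPM. PSMB8-AS1, opposite an immunoproteasome subunit and with 24.8% of its exon bases in PSMB8 exons, averaged 11.8 ± 3.04, 4.04 ± 0.782 and 5.13 ± 0.474 CPM. It was lower in PEO-4, at -1.55 (SE 0.19, adjusted p = 4.54e-06) and in SKOV-3 at -1.21 (SE 0.19, adjusted p = 5.57e-05) in edgeR, while PSMB8 changed by -0.44 (SE 0.14, adjusted p = 0.0111) and -0.02 (SE 0.14, adjusted p = 0.893), of which the first passed and was lost on leaving out any of 3 PEO-4 libraries, at -0.35 to -0.27.

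The pairs were also grouped by what the partner encodes, counting those with both partners tested and giving PEO-4 and then SKOV-3, each against T1074. Over all 616 pairs, 25.3% and 16.1% were higher in both partners, 18.3% and 22.1% lower, and 10.6% and 8.44% moved apart. Of 34 pairs of zinc finger genes, 14 and 10 were higher in both partners (41.2% and 29.4%), 3 and 5 lower (8.82% and 14.7%), and 3 and 2 moved apart. Of 27 pairs of adhesion, matrix and cytoskeleton genes, 8 and 8 were higher in both partners (29.6% and 29.6%), 10 and 8 lower (37% and 29.6%), and 2 and 2 moved apart. Of 26 pairs of lineage and developmental transcription factors, 10 and 7 were higher in both partners (38.5% and 26.9%), 8 and 8 lower (30.8% and 30.8%), and 2 and 2 moved apart. Of 26 pairs of transporters and channels, 6 and 6 were higher (23.1% and 23.1%), 4 and 4 lower (15.4% and 15.4%), and 1 and 1 moved apart. Of 23 pairs of signalling genes, 5 and 2 were higher (21.7% and 8.7%), 4 and 4 lower (17.4% and 17.4%), and 2 and 1 moved apart. Of 14 pairs of small GTPases and their regulators, 4 and 3 were higher (28.6% and 21.4%), 3 and 0 lower (21.4% and 0%), and 2 and 2 moved apart (14.3% and 14.3%). Of 17 pairs of ubiquitin and proteasome genes, 6 and 3 were higher (35.3% and 17.6%), 2 and 0 lower (11.8% and 0%), and 1 and 3 moved apart (5.88% and 17.6%), so that in SKOV-3 as many moved apart as together. The lists are small, differences between them were not tested, and nothing particular to a list is read from its counts. The median change of the antisense genes of these pairs was 0.93 and 0.65 for zinc finger genes, -0.01 and 0.21 for adhesion genes and -0.30 and -0.70 for lineage factors. It was 0.56 and -0.58 for transporters, 0.25 and -0.05 for signalling genes, -0.14 and 0.18 for small GTPases and 0.34 and -0.2 for ubiquitin genes. Over all tested antisense genes it was 0.32 and -0.24, and these differences were not tested either.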

How the data were processed

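RNA of 12 libraries, 4 each of T1074, PEO-4 and SKOV-3, was sequenced by the study as paired ends after rRNA depletion. The submitters' processing notes name bcl2fastq 2.20.0.422, Trimmomatic 0.39, STAR 2.7.3a and RSEM 1.3.1, with hg38 and GENCODE 39. The authors deposited, for each library, RSEM's expected count and TPM of every transcript, where an expected count divides reads that map to several transcripts among them by estimate and TPM divides by effective length and scales to a fixed total. The strand setting of RSEM is not given in the sources used here.

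Expected counts were summed by gene and rounded, and TPM was summed by gene. Totals of 19780836 to 55739060 per library set the precision, and intervals and floors cover counting error only. Genes were kept by filterByExpr of edgeR 4.0.16 (R 4.3.3), scaled by TMM (factors 0.883 to 1.21) and tested by the quasi-likelihood F-test in 1 fit of all 12 libraries, with p-values adjusted over all 19898 genes tested and a threshold of 0.05. CPM uses the same factors. SE is the log2 fold change divided by the square root of F. Pair ratios were tested in edgeR over all pairs with both partners tested. The scripts were tested on simulated data. Gene positions and exons come from GENCODE 44, which matched 61369 of the 61533 identifiers, and 5 partners were matched by an older symbol. Promoters are RefSeq's. Alternatives were DESeq2 1.42.0, other scalings, filters and thresholds, the replicate block, 8 libraries per fit, subsets of pairs and leaving out each library.

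The members, the lists of partner roles and the rule for named genes were chosen with earlier results of these data known. Named were, per comparison, the 5 pairs with both partners called in the same direction and the 3 in opposite directions that had the largest smaller change, with no overlap of CPM and an antisense mean of at least 1 CPM in a line. Added were the 8 antisense genes of highest TPM in any line, the 5 of largest ratio to the partner in TPM averaged over the lines, up to 5 per line at 0 in another line, listed pairs of known interest and the HOX antisense genes.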

Additional observations from a re-analysis of the deposited data

Results flagged for a closer look

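Of the 192 groups of 4 libraries examined, each a line's values of a named gene averaging at least 1 CPM or of a library measure, 8 held a library whose gap to its nearest neighbour exceeded Dixon's critical share of the group's range for 4 samples. Chance gives about 1 in 20, which would be 10 here. Among antisense genes, PHLDA1-AS1 stood at 2.97 CPM in T1074 replicate 3 beside 1.48 to 1.66 CPM in the other T1074 libraries, and NR2F2-AS1 in the same library at 2.72 CPM beside 1.58 to 1.76 CPM. HOXB-AS2 reached 1.68 CPM in PEO-4 replicate 3 beside 0.952 to 1.06 CPM. Among partners, the same PEO-4 library was high in PSMA3, at 51.8 CPM beside 38.5 to 40.7 CPM, and low in SOX9, at 25.4 CPM beside 37.2 to 39.6 CPM. GAS6 stood at 113 CPM in T1074 replicate 4 beside 51.0 to 61.3 CPM, and GNAS at 485 CPM in PEO-4 replicate 2 beside 436 to 444 CPM. The total expected count of T1074 replicate 1, 19780836, lay below that of the other T1074 libraries. What these libraries' values rest on was not tested.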

How the results depend on the processing

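The calls were counted again under each alternative. Of 342 counts, 303 stayed within 1.5 times the count reported and 39 did not. Why these moved was not tested. In the order higher, lower, same direction, opposite and ratio changed, a CPM of at least 1 in 4 libraries left 94 lower, 166 same, 42 opposite and 223 ratios in PEO-4 against T1074, 146 lower, 145 same and 183 ratios in SKOV-3 against T1074, and 207 higher, 88 lower, 156 same, 53 opposite and 229 ratios in PEO-4 against SKOV-3. Asking also for a log2 fold change of 1 or more in size left 175 same and 21 opposite, 137 and 13, and 156 and 35 in these comparisons. An adjusted p under 0.01 left 26 opposite pairs in SKOV-3 against T1074 and 58 in PEO-4 against SKOV-3. A fit of the 8 libraries compared left 34 of 508 pairs in SKOV-3 against T1074, in place of 52 of 616. Pairs whose exons share no base gave 50 same, 15 opposite and 74 ratios, 46, 11 and 63, and 53, 23 and 89. Pairs whose spans do not overlap gave 12, 3 and 19, 11, 3 and 12, and 12, 4 and 19.

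Samples with the same replicate number did not deviate together (12 correlations of -0.0792 to 0.0692). This cannot show whether they shared a culture day or preparation, which no source used here states. With the replicate block, the counts of genes higher and lower, pairs in the same and opposite directions and changed ratios were 254, 159, 256, 61 and 337 in PEO-4 against T1074, 147, 214, 216, 42 and 267 in SKOV-3 against T1074, and 307, 139, 241, 83 and 389 in PEO-4 against SKOV-3. On leaving out 1 library they ranged over 257 to 288, 151 to 177, 259 to 280, 55 to 70 and 311 to 349 in the first, 150 to 174, 214 to 231, 223 to 248, 40 to 55 and 245 to 278 in the second, and 305 to 338, 129 to 158, 235 to 274, 75 to 98 and 372 to 418 in the third. Library size as the only scaling shifted the median gene by -0.16, -0.20 and 0.04, and the antisense genes higher among those called were 57.4%, 32.2% and 70.1% in place of 61.4%, 41.5% and 68.6%. Of 6410 values of named genes under alternatives, none changed sign while called in both, 135 lost the call, 58 of them on leaving out 1 library, and 49 gained it. Low counts are among the limits: 385, 328 and 403 of the 649 tested antisense genes lay under 1 CPM in T1074, PEO-4 and SKOV-3.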

Other observations

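Antisense genes of the HOX clusters, whose protein-coding genes lay out the body axis, are named after a cluster and have no partner by the rule. HOXA-AS2 measured 6.18, 4.84, 2.99 and 6.25 CPM in T1074, 0 in all 4 PEO-4 libraries and 0.838, 0.769, 0.535 and 0.697 CPM in SKOV-3. It was highest in T1074, lower in PEO-4 by 70.0-fold at least and lower in SKOV-3, at -2.82 (SE 0.29, adjusted p = 4.06e-06) in edgeR. HOXD-AS2 measured 4.09, 4.86, 5.04 and 2.79 CPM in T1074, 0 in all 4 PEO-4 libraries and 4.81, 4.53, 5.35 and 5.8 CPM in SKOV-3. PEO-4 was at least 58.0-fold lower than T1074, and SKOV-3 overlapped T1074 and did not pass, at 0.29 (SE 0.21, adjusted p = 0.247) in edgeR. HOXB-AS3 was also at 0 in PEO-4 and rose from 0.112 ± 0.0277 CPM in T1074 to 5.44 ± 1.51 CPM in SKOV-3 (SD, n = 4), by 5.66 (SE 0.33, adjusted p = 4.07e-08) in edgeR. HOXB-AS2 went the other way, averaging 0.0982 ± 0.0413, 1.18 ± 0.335 and 0.255 ± 0.0459 CPM in the order T1074, PEO-4, SKOV-3 (SD, n = 4), and rose in PEO-4 by 3.56 (SE 0.36, adjusted p = 4.72e-07) and in SKOV-3 by 1.37 (SE 0.39, adjusted p = 0.00672) in edgeR. HOXA-AS3 was lower in PEO-4, at -3.36 (SE 0.42, adjusted p = 4.32e-06), and in SKOV-3, at -1.03 (SE 0.32, adjusted p = 0.0115), in edgeR, and the latter call was lost with a filter of 1 count (-0.93). HOXB-AS1 did not pass in any comparison, at -0.27 (SE 0.38, adjusted p = 0.539) in PEO-4 and 0.36 (SE 0.37, adjusted p = 0.391) in SKOV-3 against T1074 in edgeR. HOXB-AS4, HOXC-AS1, HOXC-AS2 and HOXC-AS3 had too few counts for a test, with means of at most 0.193 CPM in a line.

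Some pairs listed for their partner had too few antisense counts. SOX9-AS1 averaged 0.0244 ± 0.0205, 0.24 ± 0.0327 and 0.146 ± 0.0555 CPM in the order T1074, PEO-4, SKOV-3 (SD, n = 4), beside 11.6 ± 4.73, 35.3 ± 6.71 and 0.605 ± 0.117 CPM of SOX9, a factor of cartilage and epithelial progenitors. With 3 counts in T1074, SOX9-AS1 was 11.5-fold higher in PEO-4 (95% interval 3.65 to 57.9, counting error only) and 7.03-fold higher in SKOV-3 (2.18 to 36.1). SOX9 rose in PEO-4 by 1.60 (SE 0.24, adjusted p = 2.77e-05) and was lower in SKOV-3, at -4.26 (SE 0.29, adjusted p = 1.26e-08), in edgeR. LEF1-AS1 and TP73-AS3 averaged at most 0.0115 CPM in a line, and TP73-AS2 was at 0 in all 12 libraries, while TP73, a relative of p53, averaged 2.94 ± 0.787, 1.39 ± 0.297 and 0.461 ± 0.0874 CPM.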
